A study of Canis lupus familiaris with 6 samples.

Results

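The 9 genes described here encode the signalling chains of the B cell antigen receptor and other proteins of B cell signalling and identity: CD79A, CD79B, CD22, MS4A1, BLK, BLNK, BANK1, PAX5 and POU2AF1. They were taken by symbol from a table of 31512 dog genes, and all 9 were found, each in a single row. All 9 also passed the filter of a mean of at least 1 FPKM (fragments per kilobase of gene model, scaled to library size) over the dogs, as did 9847 genes in all. The rule that took them used symbols and no value from these libraries, but the members were chosen with earlier results of these data known. The dogs were adult Beagles, 1.5 years old, which received a 30 g snack beside their maintenance food. The snack of the control group held no CPP-Se, and that of the CPP-Se group held 0.03% CPP-Se, a chelate of selenium with casein phosphopeptide (a fragment of milk casein). Whole blood was taken on day 30, and of the 12 dogs in the study 3 of each group have a library here, labelled as separate biological replicates. The comparison of the groups asks whether the feed additive went with another level of these B cell transcripts in blood.

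A B cell recognises antigen through a membrane immunoglobulin that cannot signal by itself. CD79A and CD79B form the heterodimer that carries the signal into the cell, where kinases of the Src family such as BLK phosphorylate it and adaptors such as BLNK and BANK1 pass it on, while CD22 damps it. PAX5 and POU2AF1 belong to the transcriptional programme that holds a B cell to its lineage and supports immunoglobulin gene expression. In blood these genes are used mainly by circulating B cells, which are a minority of leukocytes, and CD79A, CD79B and MS4A1 are common markers for them.

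Every member was detected in every dog, from 7 reads (PAX5 in CPP-Se dog 1) to 6887 reads (CD79A in CPP-Se dog 2), so B cell transcripts were detected in all 6 libraries. Between the groups, the mean FPKM was higher in CPP-Se dogs for 8 of the 9 genes and lower for BANK1. For PAX5 it was higher only through CPP-Se dog 2. CD79B was at 35.9 ± 10.4 FPKM (SD, n = 3) in control dogs and 61.1 ± 17.2 FPKM in CPP-Se dogs, CD22 at 4.60 ± 1.22 and 10.0 ± 5.52 FPKM, and MS4A1 at 2.63 ± 0.464 and 4.60 ± 1.08 FPKM. None of the 9 passed the test across all genes (limma with Benjamini-Hochberg adjustment, two-sided), where the lowest adjusted p among them was 0.250 for MS4A1. In bulk blood, a lower or higher number of B cells and a lower or higher amount of RNA per B cell cannot be told apart.

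Few genes were called in this comparison, although 1572 of the genes tested had an unadjusted p under 0.05. At an adjusted p under 0.05 together with a fold change of 1.5 or more, 3 genes of the 9847 tested were called, which is 0.0305% of them, and 0 of the 9 members. At an unadjusted p under 0.05, 3 members (CD79B, CD22 and MS4A1) were higher in CPP-Se dogs, where 6.87% of all genes tested were, and 0 members were lower, where 9.1% of all genes were. The 3 dogs of each group did not overlap, with CPP-Se higher, for 4 members (the same genes and BLNK), as for 10.4% of all genes tested, and with CPP-Se lower for 0 members, as for 12.6% of all genes. The members' median log2 fold change was 0.49, on the scale of log2(FPKM + 1), against -0.00 over all genes, of which 90% lay between -0.78 and 0.73. The members were chosen with results of these data known, so these counts are descriptions.

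**Figure D1:**
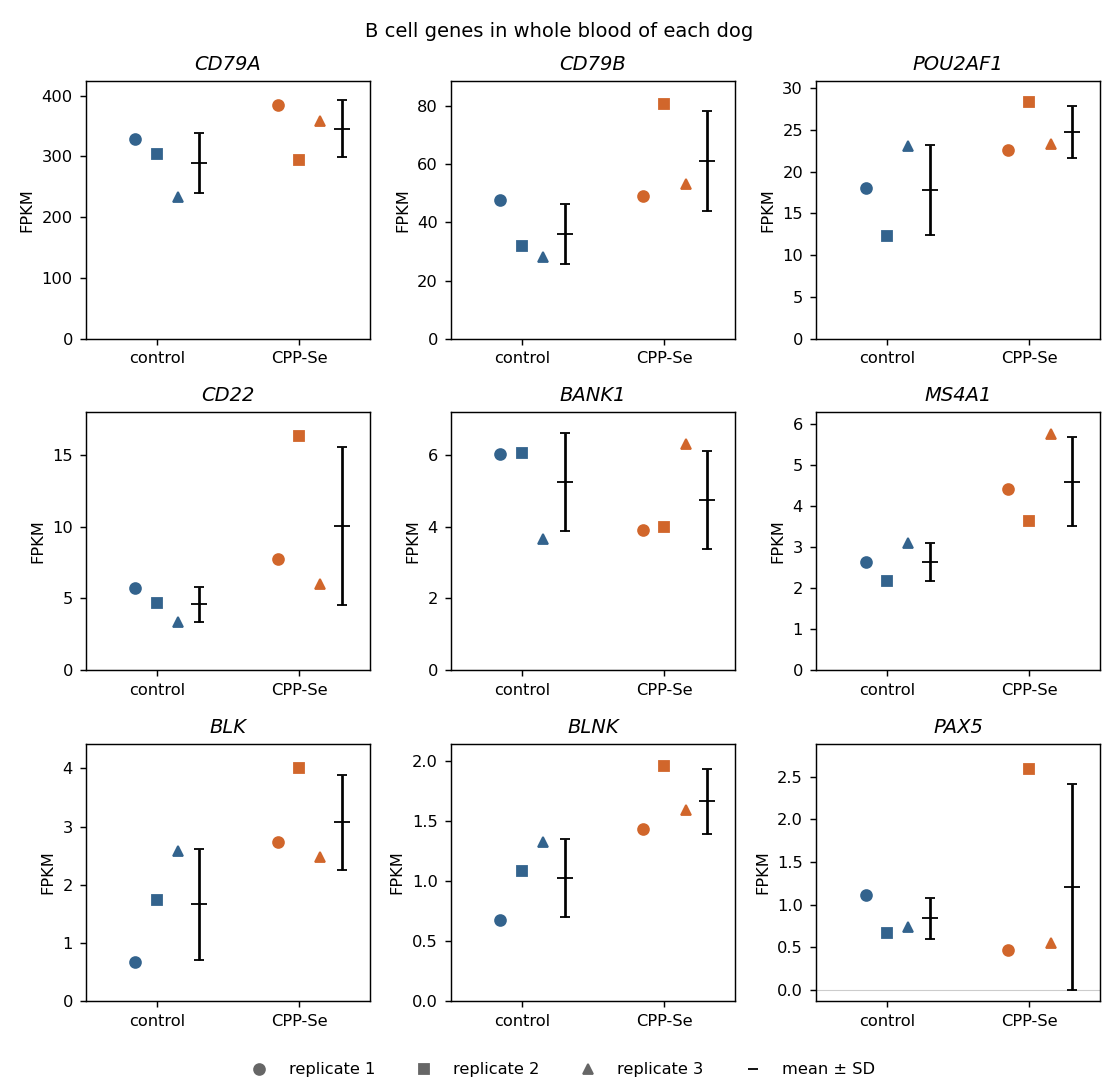
FPKM (vertical axes, from 0, a scale of its own for each gene) of the 9 genes in the 3 control and the 3 CPP-Se dogs, with a symbol for each replicate number and the mean ± SD beside each group. The groups do not overlap for CD79B, CD22, MS4A1 and BLNK, and the square of CPP-Se dog 2 is the highest point in 6 of the 9 genes.

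The libraries held 6598173 to 8067034 reads on genes, and hemoglobin genes (8 of them) took 48.7% to 55.9% of those reads in every dog but CPP-Se dog 2, where they took 36.6%. The library size implied by the FPKM of CPP-Se dog 2 was 1.65 times its reads on genes, and 0.882 to 1.05 times in the other 5 dogs. This dog also carried the highest value of 6 of the 9 members. The part of hemoglobin and of library size in the members' values was not tested beyond the other scalings given in the closing section. Without this dog, 1 member in place of 3 had an unadjusted p under 0.05, while 1535 of all genes tested did in place of 1572, and the members' median log2 fold change was 0.39. Of all genes tested, 14 (9 of them higher) were called without it in place of 3 (0 of them higher), and 0 members either way.

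The rows named for the receptor chains had the highest FPKM of the 9. CD79A (ENSCAFG00000004980, chromosome 1, 112411281 to 112427381, minus strand) was at 329, 304 and 233 FPKM in control dogs 1, 2 and 3, and at 385, 295 and 358 FPKM in CPP-Se dogs 1, 2 and 3. Control dog 3 was the lowest and CPP-Se dog 1 the highest, and the groups overlapped because CPP-Se dog 2 lay below 2 of the control dogs. The means were 289 ± 49.7 and 346 ± 46.3 FPKM, a ratio of 1.20. Its log2 fold change was 0.26 ± 0.23 (SE), with an interval (95%) of -0.26 to 0.79 and an adjusted p of 0.613. It was 0.12 without control dog 3 and 0.41 when scaled by reads on genes.

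The row that carries the name CD79A does not measure this gene alone. Its description lists a ribosomal protein S19e domain beside the immunoglobulin domain, and its gene model spans 16101 bases. No row of the table carries the symbol RPS19, the gene of that ribosomal protein, and 5 other rows are described as the protein. Those whose description gives it as the full protein name reached at most 0.723 FPKM in any dog. In RefSeq's annotation of another dog assembly, UU_Cfam_GSD_1.0, RPS19 is the gene next to CD79A. Reads of CD79A and of RPS19 can therefore not be told apart in this row.

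The level of the row was close to that of ribosomal protein genes. The median over 50 named ribosomal protein genes was 320, 330 and 243 FPKM in control dogs 1, 2 and 3 and 253, 203 and 384 FPKM in CPP-Se dogs 1, 2 and 3. The row lay near that median in the 3 control dogs and in CPP-Se dog 3, and above it in CPP-Se dogs 1 and 2. The ribosomal protein genes had a median log2 fold change of -0.10, with 0 of the 50 higher and 2 lower at an unadjusted p under 0.05. The row ranked 142nd by mean FPKM among the genes tested, and its ratio to CD79B, its partner in a dimer, ran from 3.64 in CPP-Se dog 2 to 9.55 in control dog 2. Without this row, 7 of the other 8 members had a log2 fold change above 0, 4 did not overlap between the groups and 3 had an unadjusted p under 0.05, beside 49.6%, 10.4% and 6.87% of all genes tested that did so with CPP-Se higher.

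**Figure D2:**
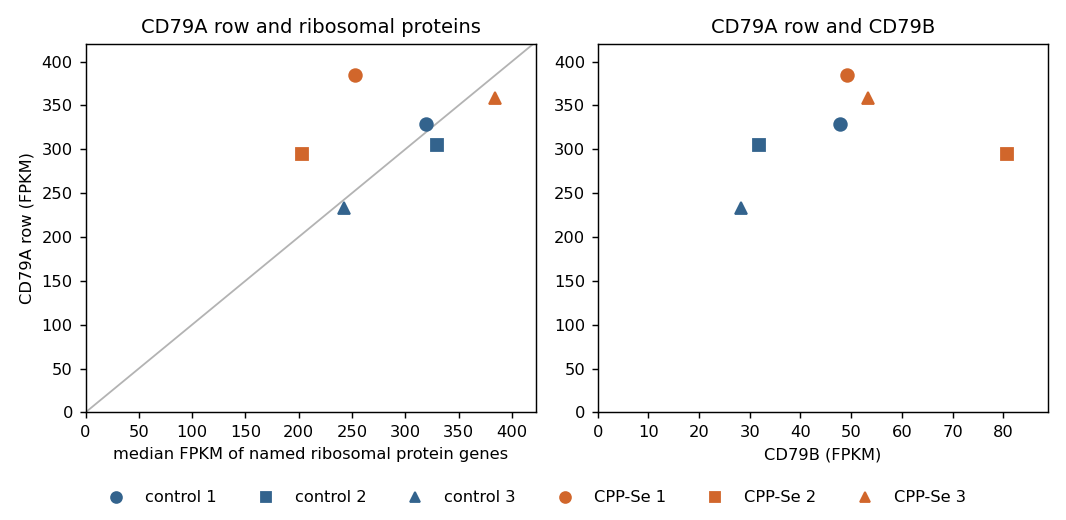
FPKM of the CD79A row (vertical axes) in each of the 6 dogs against the median FPKM of 50 ribosomal protein genes (left, with the line of equal values) and against the FPKM of CD79B (right). On the left 4 of the dogs lie close to the line, and on the right the dog with the highest CD79B (80.8 FPKM, CPP-Se dog 2) has the next to lowest CD79A value (295 FPKM).

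CD79B, the other signalling chain, has a row of its own (ENSCAFG00000012677, chromosome 9, 11842190 to 11844843, minus strand). It was at 47.8, 31.9 and 28.2 FPKM in control dogs 1, 2 and 3, and at 49.1, 80.8 and 53.3 FPKM in CPP-Se dogs 1, 2 and 3. All CPP-Se dogs lay above all control dogs, but CPP-Se dog 1 was above control dog 1 by less than the SD of either group. The difference on the log2 scale was 0.75 ± 0.27 (SE), with an interval of 0.11 to 1.39 and an adjusted p of 0.261, and the ratio of the means was 1.70. Without CPP-Se dog 2 it was 0.53, with an unadjusted p of 0.0870.

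Of the surface proteins, CD22 had the largest log2 fold change of the 9 with all 6 dogs on this scale, but lay below MS4A1 and CD79B without CPP-Se dog 2 and below BLK without control dog 3 and, narrowly, with limma-voom. CD22, a sialic acid binding lectin that recruits the phosphatase SHP-1 to the receptor (ENSCAFG00000007036, chromosome 1, 117261740 to 117284818, minus strand), was at 5.76, 4.71 and 3.33 FPKM in control dogs 1, 2 and 3. In CPP-Se dogs 1, 2 and 3 it was at 7.76, 16.3 and 6.03 FPKM. The groups did not overlap, and CPP-Se dog 2 stood well above the other 5 dogs, while CPP-Se dog 3 was only just above control dog 1. CD22 had a log2 fold change of 0.89 ± 0.35 (SE), with an interval of 0.08 to 1.70 and an adjusted p of 0.276, and it was 0.51 without CPP-Se dog 2, with an unadjusted p of 0.0948. The model of FXYD5, a regulator of the sodium pump, spans all of CD22 on the same strand, and its mean of 120 FPKM had a log2 fold change of -0.14. How reads that fall on both genes were assigned is not given in the sources used here.

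MS4A1 encodes CD20, the tetraspanning protein of mature B cells (ENSCAFG00000010381, chromosome 21, 50722041 to 50733704, plus strand). It was at 2.63, 2.16 and 3.09 FPKM in control dogs 1, 2 and 3, and at 4.42, 3.62 and 5.76 FPKM in CPP-Se dogs 1, 2 and 3. The groups did not overlap, and here CPP-Se dog 2 was the lowest of its group and CPP-Se dog 3 the highest. For MS4A1 the log2 fold change was 0.62 ± 0.22 (SE), with an interval of 0.11 to 1.12 and an adjusted p of 0.250. It rested on few reads, from 20 in control dog 2 to 70 in CPP-Se dog 2. Without CPP-Se dog 2 it was 0.75, with an adjusted p of 0.221, which makes MS4A1 the only member that kept an unadjusted p under 0.05 (0.0169) when that dog was left out. Without control dog 2, none of the 9 had one.

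**Figure D3:**
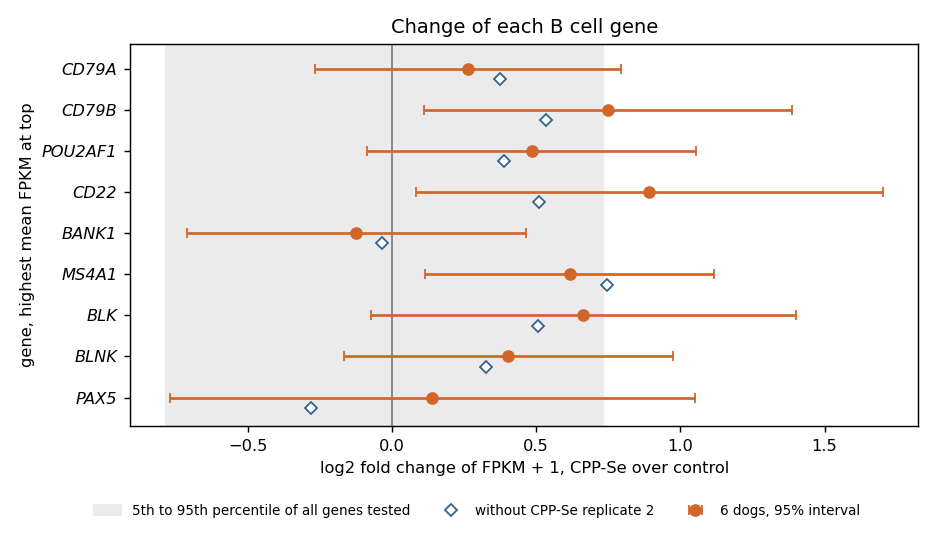
Log2 fold change of FPKM + 1, CPP-Se over control (horizontal axis), of each gene, as a filled point with its 95% interval from all 6 dogs and as an open diamond without CPP-Se dog 2, with the 5th to 95th percentile of all genes tested shaded. The intervals of CD79B, CD22 and MS4A1 lie above 0, and without CPP-Se dog 2 PAX5 moves from 0.14 to -0.28.

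The kinase and the adaptors were at single-digit FPKM. BLK, the Src family kinase of B cells (ENSCAFG00000007963, chromosome 25, 26336892 to 26358015, minus strand), was at 0.675, 1.73 and 2.58 FPKM in control dogs 1, 2 and 3 and at 2.73, 4.01 and 2.49 FPKM in CPP-Se dogs 1, 2 and 3. The control dogs spread widely, from 10 reads in dog 1 to 45 in dog 3, and control dog 3 lay above CPP-Se dog 3, so the groups overlapped. BLK had a log2 fold change of 0.66 ± 0.32 (SE), with an interval of -0.07 to 1.40 and an adjusted p of 0.361. It was 0.36 without control dog 1 and 0.51 without CPP-Se dog 2, and limma-voom on recovered reads gave 1.07, with an unadjusted p of 0.0442.

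BLNK links the kinase SYK to phospholipase C and BTK (ENSCAFG00000008477, chromosome 28, 9622752 to 9732639, minus strand). It was at 0.673, 1.08 and 1.32 FPKM in control dogs 1, 2 and 3 and at 1.43, 1.96 and 1.60 FPKM in CPP-Se dogs 1, 2 and 3. The groups did not overlap, though control dog 3 and CPP-Se dog 1 differed by less than the SD of either group. Its log2 fold change was 0.40 ± 0.25 (SE), with an interval of -0.17 to 0.97 and an adjusted p of 0.469, and it was 0.33 without CPP-Se dog 2. With a pseudocount of 0.1 it was 0.68, scaled by reads on genes other than hemoglobin 0.63, and with limma-voom on recovered reads 0.75. DNTT, on the other strand, overlaps the model by 2826 bases and had at most 5 reads in any dog.

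BANK1, a scaffold that binds LYN and the IP3 receptor (ENSCAFG00000010676, chromosome 32, 23323122 to 23602383, plus strand), was the exception to the direction of the others. It was at 6.02, 6.06 and 3.66 FPKM in control dogs 1, 2 and 3 and at 3.90, 3.99 and 6.32 FPKM in CPP-Se dogs 1, 2 and 3. Each group held low and high dogs and the ranges were nearly the same, with control dog 3 the lowest of all and CPP-Se dog 3 the highest. The log2 fold change was -0.12 ± 0.25 (SE), with an interval of -0.71 to 0.46 and an adjusted p of 0.855, and with each dog left out in turn it ran from -0.32 to -0.02.

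Of the transcriptional regulators, POU2AF1, the B cell coactivator of the octamer factors (ENSCAFG00000014213, chromosome 5, 21628439 to 21694773, plus strand), had a lower mean level than CD79B and a higher one than the 6 members after it in order. It was at 18.0, 12.4 and 23.1 FPKM in control dogs 1, 2 and 3 and at 22.6, 28.3 and 23.3 FPKM in CPP-Se dogs 1, 2 and 3. Control dog 3 lay among the CPP-Se dogs, and the other control dogs lay below them. The log2 fold change was 0.49 ± 0.25 (SE), with an interval of -0.08 to 1.05 and an adjusted p of 0.384. It was 0.26 without control dog 2, 0.39 without CPP-Se dog 2 and 0.68 without control dog 3, the last with an unadjusted p of 0.0270. Plasma cells also express this gene.

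PAX5, the factor that commits precursors to the B lineage (ENSCAFG00000002357, chromosome 11, 53201344 to 53390974, minus strand), was the lowest of the 9, with a mean of 1.02 FPKM. It passed the filter narrowly and only through CPP-Se dog 2, as the mean of the control dogs was 0.837 FPKM. It was at 1.11, 0.662 and 0.736 FPKM in control dogs 1, 2 and 3 and at 0.462, 2.60 and 0.552 FPKM in CPP-Se dogs 1, 2 and 3. CPP-Se dog 2 stood alone at the top, while the other 2 CPP-Se dogs lay below all 3 control dogs. The difference of CPP-Se dog 2 from the others was larger than counting error: its 82 reads gave an exact Poisson interval (95%, for counting error only) of 2.07 to 3.22 FPKM, against 0.186 to 0.952 FPKM for the 7 reads of CPP-Se dog 1 and 0.660 to 1.76 FPKM for the 18 reads of control dog 1. The log2 fold change was 0.14 ± 0.39 (SE), with an interval of -0.77 to 1.05 and an adjusted p of 0.897. Without CPP-Se dog 2 it was -0.28, so that the direction of PAX5 rested on that library, and with limma-voom on recovered reads it was 0.50.

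In order of mean FPKM, which is a level per length, the genes ran from CD79A through CD79B, POU2AF1, CD22, BANK1, MS4A1, BLK and BLNK to PAX5. Of genes next to each other in this order, only CD79A and CD79B had ranges over the 6 dogs that did not meet, and the CD79A row holds a further gene. CD79B was above POU2AF1 in all 6 dogs, as was POU2AF1 above CD22 and BLK above BLNK, the last by a ratio of 1.00 to 2.05. CD22 and BANK1 had no fixed order, since CD22 was the higher in 2 of the 6 dogs. BANK1 was above MS4A1 in 5 dogs, MS4A1 above BLK in 5 and BLNK above PAX5 in 4.

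The members did not move as a block from dog to dog. CPP-Se dog 2 had the highest value of CD79B, POU2AF1, CD22, BLK, BLNK and PAX5, but not of MS4A1, BANK1 or CD79A. CPP-Se dog 3 was the highest for MS4A1 and BANK1. Control dog 3 was the lowest for CD79A, CD79B, CD22 and BANK1, while control dog 1 was the lowest for BLK and BLNK and control dog 2 for POU2AF1 and MS4A1.

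The proportions among the genes differed accordingly. The ratio of BANK1 to CD79B was 0.126, 0.190 and 0.130 in control dogs 1, 2 and 3 and 0.0794, 0.0493 and 0.119 in CPP-Se dogs 1, 2 and 3, and the groups did not overlap (a description, with no test). CD79B by itself did not overlap either, and the ratios of CD79A, CD22, MS4A1 and PAX5 to CD79B overlapped between the groups. The ratio of MS4A1 to CD79B was lowest in CPP-Se dog 2, at 0.0448, and reached 0.110 in control dog 3 and 0.108 in CPP-Se dog 3. The summed FPKM of the 8 members other than CD79A was 82.7, 60.7 and 66.0 in control dogs 1, 2 and 3 and 92.5, 142 and 99.3 in CPP-Se dogs 1, 2 and 3, most of it from CD79B and POU2AF1. Without the CD79A row the members' median log2 fold change was 0.55, and the 3 genes at an unadjusted p under 0.05 were those named above.

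**Figure D4:**
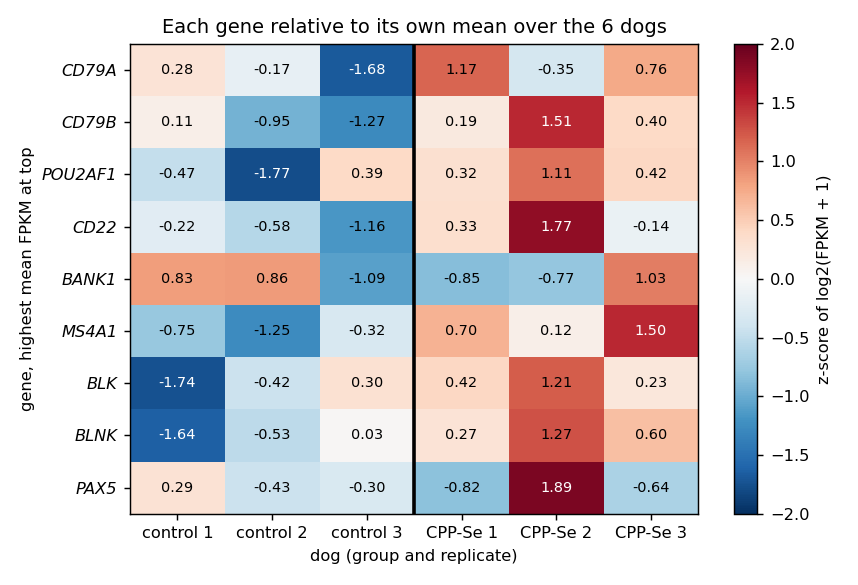
Each gene's log2(FPKM + 1) in each of the 6 dogs (columns, control left and CPP-Se right of the line) as a z-score, the distance from the gene's own mean in SDs over the dogs. CPP-Se dog 2 holds the highest scores (1.89 for PAX5 and 1.77 for CD22) beside -0.77 for BANK1 and -0.35 for CD79A.

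Other genes of B cell identity lay to the same side for the most part. Of 28 genes listed, such as surface receptors and lineage factors, 23 were in the table and 18 were tested, 17 of these had a log2 fold change above 0, where 49.6% of all genes tested did, and the median was 0.47. These counts depend on the filter. VPREB3 (0.143 FPKM in control and 1.95 FPKM in CPP-Se dogs) and AFF3 (0.990 and 1.32 FPKM) passed it only through their level in CPP-Se dogs. Of the genes that did not pass, ADAM28 was lower in CPP-Se dogs (1.35 and 0.352 FPKM), while CD72, FCRL1, EBF1 and STAP1 had higher means there. At an unadjusted p under 0.05, 3 were higher, FCRLA and TCF3 among them, and 1 was lower (BCL6), where 6.87% and 9.1% of all genes were, and none passed the adjusted test. FCRLA, an Fc receptor-like protein inside B cells, was at 5.62 ± 0.303 FPKM in control dogs and 9.11 ± 1.94 FPKM in CPP-Se dogs, and TCF3, which encodes the E2A factors, at 8.30 ± 0.475 and 12.2 ± 1.24 FPKM. BCL6, the repressor of the germinal centre that other leukocytes express too, was at 74.7 ± 2.27 and 39.6 ± 9.41 FPKM, with a log2 fold change of -0.92 and an adjusted p of 0.144.

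Genes of the pathway below the receptor lay to both sides. Of 32 listed signalling genes, some of them also in the list above, 30 were tested, 13 had a log2 fold change above 0, and the median was -0.12, against 49.6% above 0 and a median of -0.00 over all genes. The difference from the list of B cell identity genes was not tested. At an unadjusted p under 0.05, 3 genes were higher, ITPR3 among them, and LYN, SYK and SOS1 were lower, beside the 6.87% higher and 9.1% lower of all genes. ITPR3, a calcium channel of the endoplasmic reticulum that opens on IP3, was at 4.28 ± 0.514 FPKM in control dogs and 7.27 ± 0.927 FPKM in CPP-Se dogs. The kinases LYN and SYK, which myeloid cells use as well, were at 57.8 ± 6.09 and 36.4 ± 3.07 FPKM and at 111 ± 14.0 and 69.2 ± 11.2 FPKM. None passed the adjusted test, where LYN had an adjusted p of 0.183. TCF3, SYK and SOS1 are named because their values put them in these counts.

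Genes of the stages before and after the mature B cell were listed too. All 9 plasma cell genes in the table (10 listed) were tested, 0 of them had an unadjusted p under 0.05, 7 had a log2 fold change above 0, and their median was 0.21, where 6.87% of all genes were higher and 9.1% lower at that p and 49.6% lay above 0. JCHAIN, which joins IgM and IgA into polymers, was at 141 ± 60.8 and 201 ± 17.8 FPKM, with a log2 fold change of 0.60 and an adjusted p of 0.402. Of 7 listed genes of B cell precursors 6 were in the table and none passed the filter. RAG2, of the V(D)J recombinase, and MME were listed at 0 in all dogs.

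Markers of other blood cells are given beside the B cell genes, and none of them passed the adjusted test. Of 8 monocyte markers tested (9 listed), 7 were lower in CPP-Se dogs at an unadjusted p under 0.05 and 0 higher, the median log2 fold change was -0.85, and their summed level was 1235 to 1743 FPKM in control dogs and 681 to 867 FPKM in CPP-Se dogs. Of 7 neutrophil markers tested (10 listed), 4 were lower and 0 higher, with a median of -0.62 and sums of 1915 to 2445 and 1526 to 2094 FPKM. LYZ, a monocyte marker, was at 533 FPKM in control and 211 FPKM in CPP-Se dogs on average, and CXCR2, the chemokine receptor of neutrophils, at 193 and 84.9 FPKM. The neutrophil gelatinase MMP9 was the most opposite of its list, at 83.6 ± 14.2 and 431 ± 365 FPKM, with 729, 23.7 and 540 FPKM in CPP-Se dogs 1, 2 and 3, a log2 fold change of 1.35 and an adjusted p of 0.606. Over all genes tested 6.87% were higher and 9.1% lower at an unadjusted p under 0.05.

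T cell and cytotoxic markers lay mostly on the side of the B cell genes, with 10 of 12 and 6 of 6 tested above 0 in log2 fold change, where 49.6% of all genes were. In the counts that follow, higher and lower mean an unadjusted p under 0.05, at which 6.87% of all genes were higher and 9.1% lower. Of 12 T cell markers, all tested, 4 were higher (CD3D, CD5, TCF7 and CD3E) and 1 was lower (CD4, which dog neutrophils also carry), with a median of 0.52. Their sum was 1041 to 1352 FPKM in control and 824 to 1003 FPKM in CPP-Se dogs, most of it CD4. Of 6 cytotoxic markers tested (9 listed), PRF1 and TBX21 were higher and 0 lower, with a median of 0.72 and sums of 10.7 to 21.6 and 33.5 to 51.2 FPKM. Of these lists no marker in the table was at 0 in all dogs. IL3RA was tested of 7 plasmacytoid dendritic markers listed, with a log2 fold change of 1.14 and an adjusted p of 0.512, and the 3 in the table summed to 0.408 to 2.78 FPKM in control and 1.24 to 8.23 FPKM in CPP-Se dogs. Of 9 red cell markers tested (10 listed), ANK1 and SLC4A1 were higher and GYPC was lower, with a median of 0.53 and sums of 1352 to 3518 and 2281 to 3378 FPKM, and of 4 platelet markers tested (8 listed) 0 were higher and 0 lower, with a median of -0.14 and sums of 701 to 1480 and 499 to 1759 FPKM. The part of the blood's makeup in the members' values was not tested.

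**Figure D5:**
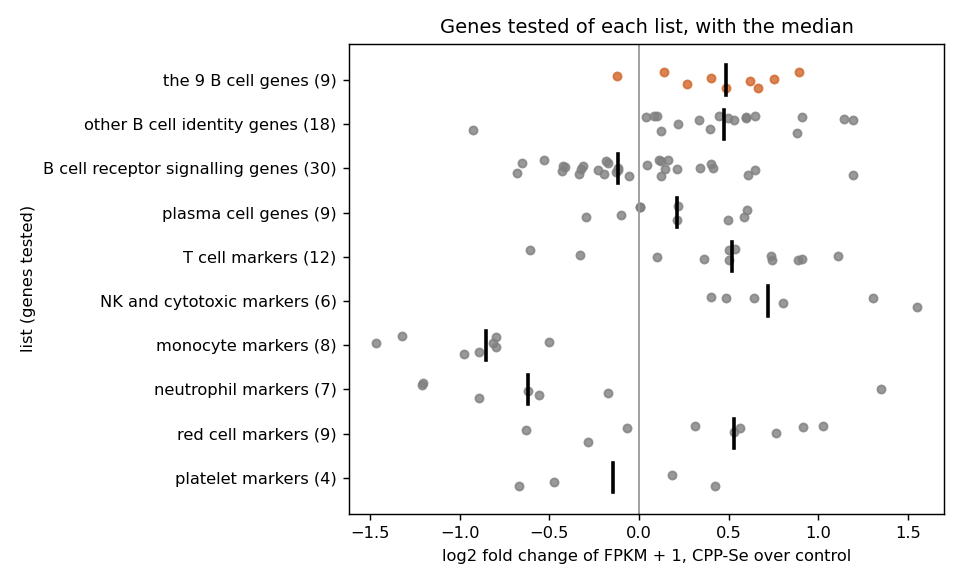
Log2 fold change of FPKM + 1, CPP-Se over control (horizontal axis), of the genes tested of each list (points), with the list's median (bar) and the number of genes tested in brackets. The 9 B cell genes (median 0.49) lie beside the other B cell identity genes (0.47) and the T cell markers (0.52), while the monocyte (-0.85) and neutrophil (-0.62) medians lie below 0.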

How the data were processed

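Whole blood RNA of 6 dogs was read as poly-A libraries on an Illumina NovaSeq. Per the submitters' processing notes and the study's methods, the authors filtered reads with fastp 0.19.7, aligned them with HISAT2 2.0.5 against Ensembl's release 100 of the dog genome and used featureCounts 1.5.0-p3 and StringTie 1.3.3b. The name of the build, the use of strand and the library size behind the FPKM are not given in the sources used here. The authors deposited 1 table of FPKM values with gene lengths and positions, and called their own differences with DESeq2 on counts that were not used here.

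FPKM times gene length, divided by the value of a single read in that library, gave whole reads (within 0.01) for 100% of values in every library. Genes whose mean over the dogs reached 1 FPKM were tested on log2(FPKM + 1) with limma 3.58.1 in R 4.3.3 (lmFit, eBayes with an intensity trend, two-sided, Benjamini-Hochberg over 9847 genes, no covariates). This scale understates the change of low genes. Tables and figures were made in Python 3.11.15 with pandas 2.3.3, numpy 2.4.6 and matplotlib 3.10.9. The fit was tested on simulated data. Precision is set by 3 dogs a group and by reads, with 95% intervals. Groups were taken from the sample titles, which number the dogs 1 to 3 in each group without pairing them.

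The members and lists were chosen with earlier results of these data known. Every member was named. Of each other list, up to 3 genes with the lowest p and the most opposite gene were named, as were the 5 genes most alike the members. Some genes that this rule covers are not named here. Genes named only to account for a count were chosen after their values were seen. Alternatives were another pseudocount, other filters and scalings, eBayes without trend or robust, limma-voom on recovered reads, a replicate block, each dog left out and, chosen after seeing the data, the members without the CD79A row.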

Additional observations from a re-analysis of the deposited data

How the results depend on the processing

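None of the 9 members passed the adjusted test under any of the 16 alternatives, over which the lowest adjusted p among them ran from 0.210 to 0.497. Against 3 genes called among all tested (0 of them higher), there were 0 with a pseudocount of 0.1, 0 with no filter, 23 when scaled by reads on genes (16 of them higher) and 1 with limma-voom on recovered reads. With each dog left out in turn there were 0 to 14 genes called, the 14 (9 of them higher) without CPP-Se dog 2. Over the same fits 0 to 3 members had an unadjusted p under 0.05: 0 without control dog 2 and 1 without CPP-Se dog 2.

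The members' median log2 fold change of 0.49 became 0.68 with a pseudocount of 0.1, 0.63 when scaled by reads on genes, 0.63 when scaled by reads on genes other than hemoglobin and 0.70 with limma-voom. Those scalings moved the median of all genes to 0.12 and 0.11. BANK1 turned to 0.0025 when scaled by reads on genes, still below that median of all genes, and PAX5 to -0.28 without CPP-Se dog 2 (with each dog left out, -0.28 to 0.37). The cause of these moves was not tested. With the replicate block 1 gene was called and 3 members kept an unadjusted p under 0.05, and dogs of the same number did not deviate together (correlations 0.02, -0.09 and -0.04). CD22 and CD79B had an unadjusted p under 0.05 in 13 of the 16 alternatives and MS4A1 in 12. The genes tested were held at the 9847 except where the filter changed. MS4A1, BLK, BLNK and PAX5 rest on few reads, and 3 dogs a group limit what can be shown for all 9.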

Other observations

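Outside all lists, the 5 genes whose log2(FPKM + 1) was most alike the members' mean z-score over the 6 dogs were NNT, CHST3, RNPS1, SPTAN1 and ZBTB4, of 5472 genes compared. NNT, the mitochondrial transhydrogenase that makes NADPH, had a Pearson r of 0.985 (0.956 against the members without CD79A). The r was 0.977 for CHST3, a sulfotransferase of chondroitin, 0.976 for RNPS1, a splicing cofactor, 0.975 for SPTAN1, the alpha chain of non-erythroid spectrin, and 0.970 for ZBTB4, a zinc finger protein that binds methylated DNA. Against the members without CD79A it was 0.953 for CHST3, 0.943 for RNPS1, 0.974 for SPTAN1 and 0.912 for ZBTB4, so the order among the 5 depends on that row. These values were picked as the highest of many over few dogs and are a description.

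SPTAN1 was at 31.1, 31.3 and 32.2 FPKM in control dogs 1, 2 and 3 and at 38.3, 43.8 and 38.7 FPKM in CPP-Se dogs 1, 2 and 3. Its groups did not overlap, as for 10.4% of all genes tested with CPP-Se higher. The members' mean z-score, by which it was picked, did not overlap between the groups either, so this follows from the picking. RNPS1 was at 24.6, 22.5 and 23.5 FPKM in control dogs and at 30.6, 33.4 and 30.3 FPKM in CPP-Se dogs. None of the 5 passed the adjusted test, with adjusted p (limma with Benjamini-Hochberg adjustment) from 0.183 for ZBTB4 to 0.361 for SPTAN1. As with most members, and with the mean z-score by which they were picked, CPP-Se dog 2 was the highest in all 5.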
